A study of Homo sapiens with 6 samples.

Results

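Messenger RNAs of splicing regulators were mostly lower in HCT116 samples labelled Rab27B KO, while those of the small nuclear ribonucleoprotein (snRNP) proteins that form the core of the spliceosome went both ways. The members described here are the 86 genes of 7681 in the authors' deposited tables whose symbol begins with the name of a splicing factor or RNA-binding family: SRSF, HNRNP, SF3A, SF3B, PRPF, SNRP, SNRNP, U2AF, RBM or LSM with a number, or is SF1, QKI, SRRM, CLK, PTBP, MBNL or CELF with a number. The choice used names only. Of the 86, 18 encode core snRNP proteins, 14 encode other spliceosome or LSm proteins (called accessory here) and 54 encode regulators. Some of the RBM and LSm proteins are known to act in messenger RNA decay, ribosome assembly or RNA methylation.

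HCT116 is an epithelial line from a human colorectal carcinoma. The study sequenced RNA from 6 cultures grown untreated for 48 hours, 3 of wild type (WT) cells and 3 labelled Rab27B KO, in which RAB27B, a small GTPase of secretory vesicles, was targeted with CRISPR/Cas9. Whether the knockout cells are 1 clone or a pool is not stated in the labels. The comparison asks how loss of RAB27B alters the transcriptome. Both groups share the cell line, medium and time.

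The values are the authors' own comparison of the 2 genotypes: for each gene a log2 ratio (Rab27B KO divided by wild type) and a q-value, the authors' p-value after adjustment for many tests. All listed genes have a q-value below 0.05. Neither table holds values per sample, so the sequencing depth, the level of a gene in each culture and the spread between replicates are unknown, and no error on a fold change can be given. A gene in neither table may have missed the threshold or not been measured. In the authors' deposited table RAB27B itself was higher by 36.7-fold in the KO samples, against the label, so every direction below is that of the samples so labelled. Whether the sample labels or the direction of the ratio are inverted cannot be told apart from a true rise with these tables, and an inversion would turn every higher gene here into a lower one and every lower gene into a higher one. Of 10 colon epithelial markers 7 were listed, 4 higher and 3 lower, which gives no level and so does not check the cell type. Of 4 mesenchymal markers 3 were listed, all higher, and of 12 leukocyte, fibroblast, endothelial and neural markers 4 were listed, 3 of them higher. Their part in the results below was not tested.

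Splicing removes introns from precursor messenger RNA. The U1, U2, U4, U5 and U6 snRNPs recognise the splice sites and assemble the catalytic spliceosome, and each carries a ring of 7 Sm or LSm proteins together with proteins of its own. Regulators bind the RNA beside them: SR proteins mostly promote the use of exons, hnRNP proteins often repress it, and PTB, MBNL, CELF, QKI and many RBM proteins set tissue-specific patterns. Many SR and hnRNP genes limit their own level by splicing their transcripts into forms that are destroyed by nonsense-mediated decay.

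The hnRNP genes were the largest family listed in a single direction, and their promoters are shown for letters that the naming rule did not use. RefSeq promoter windows (GRCh38.p14), each spanning 250 bases before to 50 after a start, were found for 75 members, in 111 windows, and for 15 of the 16 listed hnRNP genes, in 23 windows. In 7 of these 15 genes a window holds the letters CACGTG, the core of the E-box that MYC, USF and related factors bind. Shown with 12 bases on either side, the E-box letters in capitals, 5′ to 3′ on the strand of the gene, they read:
HNRNPA3, chr2:177212711-177212740, plus strand: cggaaaacgcgtCACGTGacgactggcccc
HNRNPD, chr4:82374001-82374030, minus strand: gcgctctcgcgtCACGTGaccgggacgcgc
HNRNPDL, chr4:82430364-82430393, minus strand: agaggcccggggCACGTGcagaaaggagcc
HNRNPH2, chrX:101408168-101408197, plus strand: ccgagagttgctCACGTGaccgagatctca
HNRNPH3, chr10:68331631-68331660, plus strand: tgccggtcgaacCACGTGgggccctttccg
HNRNPM, chr19:8444921-8444950, plus strand: gttgcgtcgggtCACGTGggcgcgcaggcg
HNRNPUL1, chr19:41262568-41262597, plus strand: aacctctgggccCACGTGagtgtctgtccc

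The E-box letters begin 71 bases before the start in HNRNPA3, 27 in HNRNPD, 42 in both HNRNPH2 and HNRNPM, 50 in HNRNPH3 and 156 in HNRNPDL, and at base 24 of the transcribed part in HNRNPUL1. A second HNRNPDL window also holds them. At least 1 window with CACGTG was found for 46.7% of the hnRNP genes (7 of 15), against 12.7% of the listed genes with a window (787 of 6209) and 8.77% of all genes in the promoter table (2396 of 27305). By window, the letters stand in 34.8% of the hnRNP windows (8 of 23) and in 7.26% of all 35116 windows. The CCAAT box, searched as CCAAT on both strands, was in a window of 13 of 15 hnRNP genes (86.7%), against 43.5% of the listed genes and 39.7% of all genes. Of the 7 SR genes with a window none has CACGTG and only SRSF8 has CCAAT. The CCAAT box was also found for 7 of 11 accessory genes (63.6%), 9 of 16 RBM genes (56.3%) and 6 of 16 core genes (37.5%). A share above that of the listed genes was thus not confined to the hnRNP genes. The E-box letters were found for 3 of 16 RBM genes (18.8%), 1 of 16 core genes and no accessory gene. Among the listed genes that were lower the E-box share was 14.1%. In all 8 motifs were searched, and in the windows of the members no match shares a base with a match of another motif. The families were picked out after the matches were seen, and a match describes letters and not a bound site.

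The promoter of HNRNPD, the member with the smallest q-value, is shown beside that of SNRNP25, the core snRNP gene with the largest rise. Both are the 250 bases before the start, with matches on either strand in capitals. The motifs were the TATA box (TATAAA), the CCAAT box, the GC box (GGGCGG), the E-box, the cyclic AMP element (TGACGTCA), the ETS site (ACTTCCGG), the E2F site (TTTCGCGC) and the NRF1 site:
HNRNPD, chr4:82373992-82374241, minus strand: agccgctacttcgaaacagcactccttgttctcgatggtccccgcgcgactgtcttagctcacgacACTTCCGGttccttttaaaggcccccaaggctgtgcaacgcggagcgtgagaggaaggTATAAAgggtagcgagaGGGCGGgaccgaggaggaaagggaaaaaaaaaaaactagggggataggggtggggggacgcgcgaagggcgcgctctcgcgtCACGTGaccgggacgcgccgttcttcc
SNRNP25, chr16:53578-53827, plus strand: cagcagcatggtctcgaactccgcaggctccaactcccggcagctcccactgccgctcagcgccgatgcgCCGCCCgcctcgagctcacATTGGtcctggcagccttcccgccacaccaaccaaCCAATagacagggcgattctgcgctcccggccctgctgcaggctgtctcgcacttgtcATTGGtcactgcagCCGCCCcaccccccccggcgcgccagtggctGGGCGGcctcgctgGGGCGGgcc

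The HNRNPD stretch holds 1 match each to the TATA box, the GC box, the E-box and the ETS site. The SNRNP25 stretch holds 3 CCAAT boxes and 4 GC boxes and none of the other motifs. Over the core snRNP genes with a window, ACTTCCGG was found in 6 of 16 (37.5%), namely LSM5, SF3A1, SF3B2, SF3B6, SNRNP27 and SNRPB. The same letters stand in 9.08% of the listed genes and 4.95% of all genes. Of these 6 core genes 3 were higher and 3 lower. GGGCGG was found in 68.0% of the members, 79.5% of the listed genes and 48.3% of all genes. TATAAA was in 10.7%, 8.49% and 13.99% of them. TGACGTCA was in 3 of 75 members, beside 3.78% of the listed genes and 2.25% of all genes. The E2F letters were in no member with a window and in 0.902% of the listed genes, and the NRF1 site was in 1 member, RBM23, and in 2.48% of the listed genes.

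Counted by class, regulators and accessory proteins leaned to lower and core proteins did not. Of all 7681 listed genes 49.3% were lower and 50.7% higher. Of the 86 members 66 (76.7%) were lower and 20 higher. Among the regulators 46 of 54 (85.2%) were lower, with a 95% Wilson interval of 73.4 to 92.3% that covers counting error only. Among the accessory proteins 11 of 14 (78.6%) were lower, and among the core snRNP proteins 9 of 18 (50%). The median log2 fold change was -0.28 for the regulators, -0.23 for the accessory proteins and 0.02 for the core proteins, beside 0.12 for all listed genes. No test of 1 list against other genes was made. The names matching the rule number 156 among RefSeq protein-coding genes, of which 86 (55.1%) were listed, against 37.9% of all 20056 RefSeq protein-coding genes, many of which may not be expressed in these cells.

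**Figure D1:**
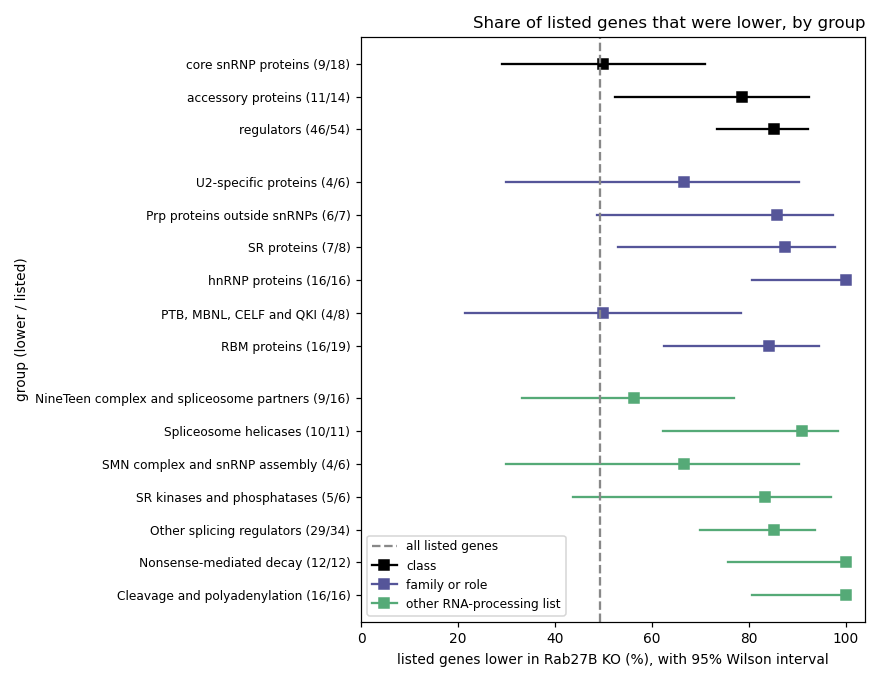
Share of listed genes that were lower in the samples labelled Rab27B KO (x axis, percent) for the 3 classes, the families with at least 6 listed members and the other RNA-processing lists with at least 6 (y axis, lower over listed); squares are shares, bars 95% Wilson intervals and the dashed line the 49.3% of all listed genes. The hnRNP, nonsense-mediated decay and cleavage and polyadenylation groups sit at 100%, and the core snRNP proteins at 50%.

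The changes were small. No member reached a log2 change of 1 in either direction, whereas 968 of all listed genes did. A change of at least 0.5 was found for 9 of the 86 members (10.5%), against 38.7% of all listed genes. The median size of the change, regardless of sign, was 0.28 for the members and 0.41 for all listed genes. The largest q-value of a member was 0.0439, that of MBNL1.

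Among the core proteins found by name most small subunits were higher and the large ones lower. LSM5 and LSM6 were the small ones that were lower. EFTUD2, a U5 protein outside the naming rule with a coding length of 2916 nt, was higher at 0.23 (q = 1.28e-07) in the authors' deposited table. The division by size is therefore that of the members only. The 3 listed Sm proteins, which form the ring around the U1, U2, U4 and U5 RNAs, were all higher: SNRPD2 at a log2 of 0.23 (q = 2.41e-06), SNRPB at 0.18 (q = 2.17e-05) and SNRPG at 0.15 (q = 0.0290) in the authors' deposited table. The other 5 genes of the ring, SNRPD1, SNRPD3, SNRPE, SNRPF and the near-identical SNRPB copy SNRPN, were in neither table. Of the LSm ring on U6 RNA, LSM3 was higher at 0.18 (q = 0.00385), whereas LSM5 was lower at -0.47 (q = 2.42e-04) and LSM6 at -0.52 (q = 1.31e-05) in the authors' deposited table. LSM6 and LSM5 therefore went against LSM3, their partner in the same ring, and had the largest falls of the core class. LSM6 lies on chromosome 4 and LSM5 on chromosome 7, where 83.2% and 67.0% of the listed genes were lower. The part of this in their values was not tested.

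The proteins specific to U1, which recognises the 5′ splice site, also split. SNRPC (U1-C) stood at 0.27 (q = 4.69e-08) and SNRNP70 (U1-70K), which binds a stem-loop of U1 RNA, at -0.18 (q = 1.05e-04) in the authors' deposited table. In U2, which binds the branch point, 4 large subunits were lower and 2 small ones higher. SF3B1, the scaffold of the SF3b complex and a frequent target of mutation in blood cancers, was lower at -0.28 (q = 8.04e-14), and SF3B2, SF3A1 and SF3B3 at -0.19, -0.17 and -0.11 in the authors' deposited table. SF3B5 and SF3B6, the latter contacting the branch point region, were higher at 0.31 (q = 3.26e-07) and 0.22 (q = 6.49e-04) in the authors' deposited table. These subunits thus changed in opposite directions within 1 complex.

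The listed U5 and tri-snRNP proteins of the core class, which leaves out EFTUD2 by name, showed the same division. PRPF8, the large protein at the catalytic centre, and SNRNP200, the helicase (Brr2) that unwinds U4 from U6, were lower at -0.21 (q = 5.73e-12) and -0.19 (q = 2.33e-08) in the authors' deposited table. SNRNP27, a small protein of the tri-snRNP, was higher at 0.37 (q = 4.14e-06) in the authors' deposited table. SNRNP25, a small protein of the U11/U12 particle of the minor spliceosome, had the largest rise of the core class, 0.50 or 1.42-fold (q = 8.40e-06) in the authors' deposited table. Reads of SNRPG and SNRPC may be shared with pseudogenes, of which GENCODE names 20 and 18 after them, so both values are uncertain.

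**Figure D2:**
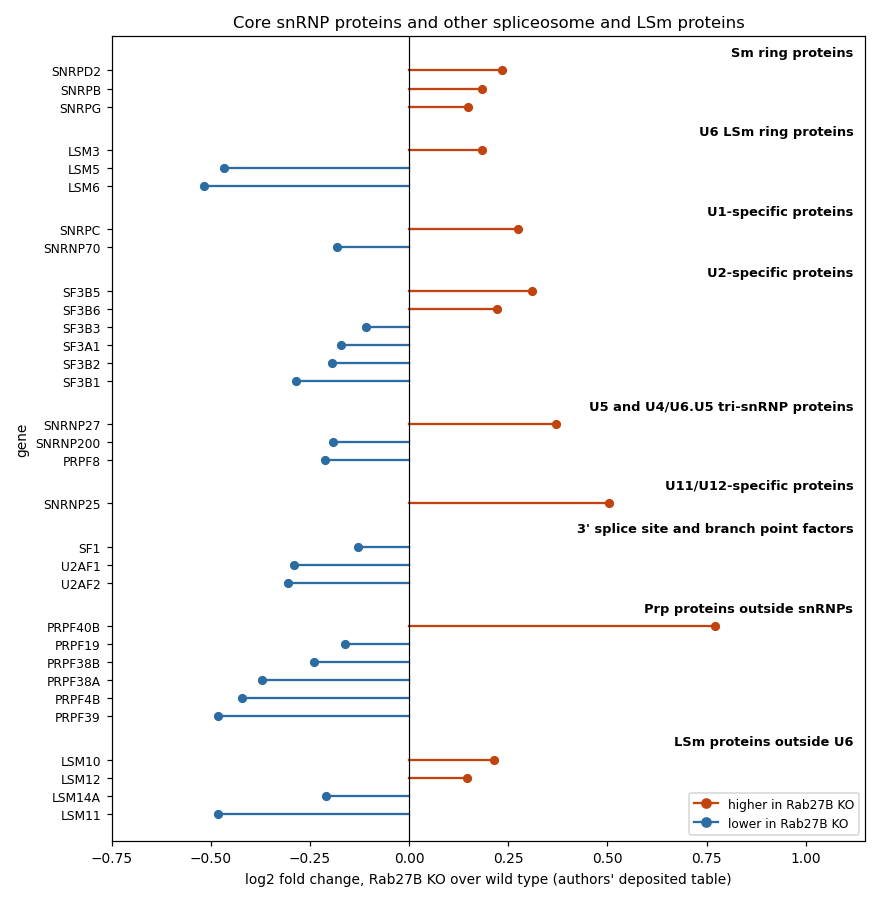
Log2 fold change of listed core snRNP, accessory spliceosome and LSm genes (x axis) by role, without 1 gene that is not reported here, with 1 line and point per gene (y axis), red for higher and blue for lower in the samples labelled Rab27B KO. The Sm genes lie between 0.15 and 0.23, the SF3 subunits fall on both sides of 0, and PRPF40B stands apart at 0.77.

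Short and long coding sequences mostly went in opposite directions in the core class. Lengths are those of the longest coding transcript in GENCODE release 29, and the boundary of 1000 nt was chosen after the values were seen. Of the 11 core genes with a coding length under 1000 nt, from 240 nt in LSM6 to 720 nt in SNRPB, 9 were higher and 2, LSM5 and LSM6, lower. All 7 with 1000 nt or more, from 1311 nt in SNRNP70 to 7005 nt in PRPF8, were lower. The same lean was present among all listed genes: 30.1% of the 2217 under 1000 nt were lower, against 57.0% of the 5393 with 1000 nt or more. Regulators were mostly lower on both sides of that length, with 6 of 8 under 1000 nt (75.0%) and 40 of 46 at or above it (87.0%). Across the 18 core genes Spearman's rho between the log2 fold change and transcript length was -0.61, and across the 54 regulators it was 0.00. It was -0.43 across the 14 accessory genes and -0.27 across 7610 listed genes. For coding length rho was -0.25 across the core genes, -0.29 across the regulators and -0.27 across 7610 listed genes. For GC content it was 0.26 across the core genes, -0.18 across the regulators and 0.15 across all listed genes. These 3 measures were computed for each class, all members and all listed genes. Genes are not independent replicates, they share the same 6 libraries, and no p is given. Long transcripts gather more reads, which bears on what passes a q-value threshold, and the part of length in the directions was not tested.

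**Figure D3:**
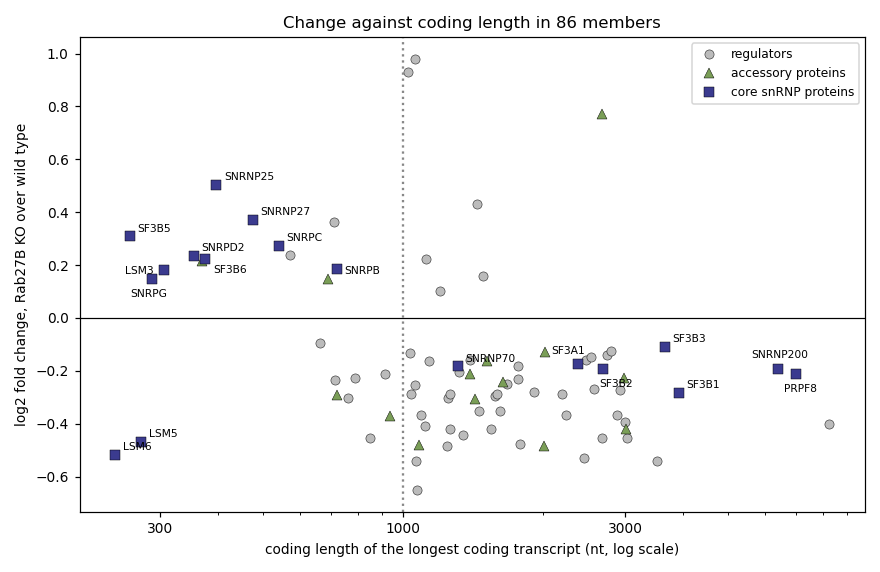
Log2 fold change, KO relative to WT (y axis) against coding length in nt (x axis, log scale) for the 86 members, with squares for core snRNP, triangles for accessory and circles for regulator genes and a dotted line at 1000 nt. The 7 core genes to the right of the line are all below 0, and 9 of the 11 to the left are above 0.

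The factors that first mark the 3′ splice site and branch point were all lower. U2AF2 (U2AF65), which binds the polypyrimidine tract, stood at -0.31 (q = 9.62e-18), its partner U2AF1, which reads the AG at the intron end, at -0.29 (q = 4.41e-08) and the branch point binding protein SF1 at -0.13 (q = 3.25e-04) in the authors' deposited table. Of the 7 listed Prp proteins outside the snRNPs 6 were lower. PRPF39, a U1-associated protein, was lowest at -0.48 (q = 1.43e-06), followed by the kinase PRPF4B at -0.42 (q = 1.26e-14) and PRPF38A, which joins at activation of the spliceosome, at -0.37 (q = 4.36e-08) in the authors' deposited table. PRPF38B stood at -0.24 and PRPF19, the ubiquitin ligase of the Prp19 complex, at -0.16 in the authors' deposited table. PRPF40B, a relative of a yeast protein that bridges U1 and the branch point, was the Prp gene listed as higher, 1.71-fold or a log2 of 0.77 (q = 6.58e-18) in the authors' deposited table.

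LSm proteins outside U6 split evenly. LSM10 and LSM11 belong to the U7 snRNP, which processes histone messenger RNA, yet LSM10 was higher at 0.21 (q = 0.0207) and LSM11 lower at -0.48 (q = 9.33e-04) in the authors' deposited table. LSM14A, a protein of cytoplasmic processing bodies, was lower at -0.21, and LSM12 higher at 0.15 in the authors' deposited table.

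The SR proteins, serine and arginine rich activators of splicing, were lower in 7 of the 8 listed. SRSF8, a close copy of SRSF2 whose reads may be shared with it, was lowest at -0.45 (q = 1.18e-11), then SRSF11 at -0.35 (q = 3.04e-15) and SRSF1, the founding member of the family and a known oncoprotein, at -0.30 (q = 2.00e-09) in the authors' deposited table. In the authors' deposited table SRSF7 and SRSF10 stood at -0.23 each, with q-values of 1.84e-06 and 1.39e-05. The smallest falls were in SRSF6 at -0.13 and SRSF2 at -0.09 (q = 0.0436) in the authors' deposited table. SRSF4 was the only SR gene listed as higher, at 0.16 (q = 0.00352) in the authors' deposited table, and SRSF3, SRSF5, SRSF9 and SRSF12 were in neither table. All 8 listed SR genes have at least 1 transcript that GENCODE types as a target of nonsense-mediated decay, against 41.2% of all listed genes, 10 of 16 hnRNP genes and 7 of 19 RBM genes. The tables give 1 value per gene, so changes between such transcripts and the coding ones cannot be seen.

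The partners of the SR proteins went the same way. SRRM2, a very large scaffold of nuclear speckles, the bodies where splicing factors gather, was lower at -0.40 (q = 9.17e-29) and SRRM1 at -0.14 (q = 2.65e-04) in the authors' deposited table. CLK1, a kinase that phosphorylates SR proteins and releases them from speckles, was lower at -0.30 (q = 0.00799) in the authors' deposited table. The other CLK kinases, CLK2, CLK3 and CLK4, were in neither table.

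All 16 listed hnRNP genes were lower, with log2 fold changes from -0.54 to -0.16 and a median of -0.28. The most negative was HNRNPD (AUF1), which binds AU-rich elements and promotes decay of messenger RNA, at -0.54 or 1.45-fold lower (q = 2.84e-44, the smallest among the 86 members) in the authors' deposited table. Its paralog and neighbour HNRNPDL, 48.6 kb away on chromosome 4, stood at -0.42 (q = 1.63e-18) in the authors' deposited table. On chromosome 4 83.2% of the 298 listed genes were lower, and the part of this in the 2 values was not tested. The next lowest were HNRNPH2, which binds G-rich tracts, at -0.44 (q = 1.02e-06) and HNRNPA1, the best known repressor of exon inclusion, at -0.41 (q = 4.72e-27) in the authors' deposited table. GENCODE names 74 pseudogenes after HNRNPA1 and 16 after HNRNPA3, so reads of these 2 genes may be split or shared and their values are uncertain.

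The listed members of each hnRNP subfamily were lower by differing amounts. In the A/B group HNRNPA2B1 stood at -0.25 (q = 4.37e-11), HNRNPA0 at -0.21 (q = 4.17e-08) and HNRNPA3 at -0.16 (q = 4.32e-04) in the authors' deposited table. HNRNPF and HNRNPH3, relatives of HNRNPH2, were at -0.30 (q = 1.60e-15) and -0.29 (q = 1.67e-07) in the authors' deposited table, while HNRNPH1 was in neither table. HNRNPUL2 and HNRNPUL1 stood at -0.37 (q = 7.73e-16) and -0.27 (q = 3.70e-17) and HNRNPU, a chromatin-associated scaffold protein, at -0.16 (q = 2.15e-05) in the authors' deposited table. HNRNPM and HNRNPR were at -0.29 and -0.28, and HNRNPL and the C-rich binding HNRNPK at -0.18 and -0.16 in the authors' deposited table. HNRNPC, HNRNPAB and HNRNPLL, together with HNRNPH1, are among the 10 hnRNP names of RefSeq in neither table, the rest being HNRNPA1L and HNRNPCL copies.

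Tissue-type regulators divided by family. The 3 PTB proteins, which repress exons through pyrimidine tracts, were all lower: PTBP2, the form typical of neurons, at -0.35 (q = 0.0249), PTBP3 at -0.25 (q = 9.68e-05) and PTBP1 at -0.23 (q = 2.21e-11) in the authors' deposited table. The 3 muscleblind proteins were all higher. MBNL3 had the largest rise of the 86 genes, 0.98 or 1.97-fold (q = 1.80e-15), with MBNL2 at 0.22 (q = 4.01e-05) and MBNL1 at 0.10 (q = 0.0439) in the authors' deposited table. CELF1, which often acts against MBNL proteins on the same exons, was lower at -0.42 (q = 3.57e-12) in the authors' deposited table, and CELF2 to CELF6 were in neither table.

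QKI, an RNA-binding protein of the STAR family that promotes formation of circular RNA and is known for mesenchymal splicing patterns, was 1.90-fold higher, at 0.93 (q = 1.64e-30), in the authors' deposited table. After MBNL3 this was the second largest rise of the members. Among regulators of epithelial splicing RBM47 and ESRP1 were lower. RBM47, which is active in epithelia, was lower at -0.48 (q = 5.67e-06) and ESRP1, the epithelial splicing regulator that is no member by name, at -1.09 (q = 5.11e-94) in the authors' deposited table. Its paralog ESRP2, chosen after its value was seen, was higher at 0.23 in the authors' deposited table. RBM47 lies on chromosome 4, where 83.2% of the 298 listed genes were lower, and the part of this in its value was not tested. RBFOX2, a splicing regulator outside the naming rule, also chosen after its value was seen, was lower at -0.18 in the authors' deposited table, opposite to QKI. Beside these stand the markers of the 2 states: in the authors' deposited table VIM was at 3.04, ZEB1 at 2.74, FN1 at 0.87, CDH1 at -1.15 and EPCAM at -1.15. Of the other listed epithelial markers, CDX2 stood at -0.75, while KRT8 at 0.61, KRT18 at 0.47, KRT19 at 0.52 and KRT20 at 2.08 were higher in the authors' deposited table, so the epithelial list went both ways. Of the mesenchymal list CDH2 was in neither table. The part of these markers in the values of QKI and RBM47 was not tested. In bulk RNA a change in the share of cells in a state cannot be told apart from a change per cell.

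**Figure D4:**
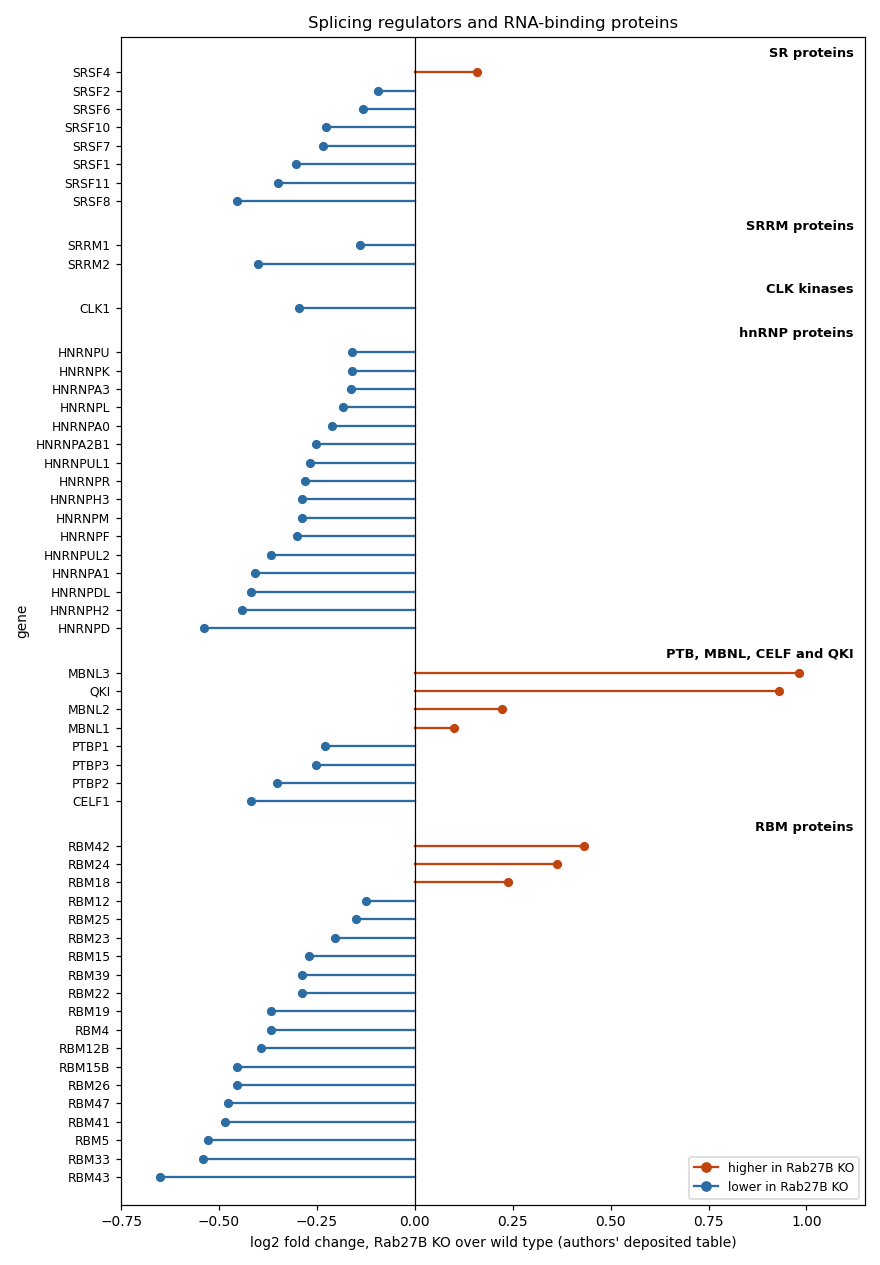
Log2 fold change of each of the 54 listed regulator genes (x axis) by family, with 1 line and point per gene (y axis), red for higher and blue for lower in the samples labelled Rab27B KO. All 16 hnRNP genes lie between -0.54 and -0.16, and MBNL3 at 0.98 and QKI at 0.93 stand apart from the other 6 regulators that were higher.

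Of 19 listed RBM genes, which share only the RNA recognition motif in their name, 16 were lower. RBM43 was lowest at -0.65 or 1.57-fold lower (q = 0.00138), followed by RBM33 at -0.54 (q = 3.62e-18) and RBM5, a regulator of exons in cell death genes, at -0.53 (q = 4.72e-18) in the authors' deposited table. RBM15B and RBM15, which guide the methylation of adenosine in messenger RNA, stood at -0.46 (q = 8.07e-24) and -0.27 (q = 0.0246) in the authors' deposited table. RBM26, linked to decay of nuclear transcripts, was at -0.46 (q = 4.22e-15) in the authors' deposited table. RBM41, a protein of the minor spliceosome, was lower at -0.48 (q = 3.96e-07) in the authors' deposited table, opposite to SNRNP25 of the same machinery.

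Some RBM proteins are known to act inside or beside the spliceosome, and those named here were picked from that knowledge after their values were seen. RBM22, which contacts the catalytic RNA, stood at -0.29 (q = 5.46e-08), RBM39, a relative of U2AF2, at -0.29 (q = 1.82e-07) and RBM25, which is associated with U1, at -0.15 (q = 0.00220) in the authors' deposited table. RBM42, found in the tri-snRNP, was higher at 0.43 (q = 6.59e-14) in the authors' deposited table. RBM24, a regulator of muscle splicing, and RBM18 were also higher, at 0.36 (q = 0.0279) and 0.24 (q = 0.00399) in the authors' deposited table. Among the remaining RBM genes, RBM12B, RBM4 and RBM19, the last a ribosome assembly factor, lay between -0.39 and -0.37, and RBM23 and RBM12 at -0.20 and -0.12 in the authors' deposited table. Since 20 RBM names of RefSeq were in neither table, including RBM3, RBM8A, RBM10 and RBM17, the count covers only the listed part of the family.

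Chromosomes with a general lean held few members. Chromosomes 4, 7 and 13 hold 9 of the 86 genes, and chromosome 15 holds none. On chromosomes 4 and 7 all 7 members were lower: LSM6, RBM47, HNRNPD and HNRNPDL on 4 and LSM5, HNRNPA2B1 and RBM33 on 7. Of all listed genes 83.2% were lower on chromosome 4 and 67.0% of 400 on chromosome 7. On chromosome 13 RBM26 was lower and MBNL2 higher, in a setting where 86.5% of the 148 listed genes were lower. Without these 4 chromosomes 40 of 47 regulators were lower, against 44.6% of the 6578 other listed genes. At a q-value below 0.01, 42 of 48 regulators were lower, against 48.9% of the 6522 genes that pass it. With a log2 change of at least 0.5, 4 of 6 regulators were lower, against 49.3% of 2970 genes.

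Other genes of the splicing pathway were taken from 9 lists written with earlier results of these data known. In 8 of the lists more genes were lower than higher, and in the minor spliceosome list the counts were equal. The share lower ran from 50% in the minor spliceosome list to 100% in nonsense-mediated decay and in cleavage and polyadenylation. Beside these stand 49.3% of all listed genes and 57.0% of those with a coding length of 1000 nt or more. The genes of a list share the same 6 libraries, so these are counts and not a test of any list. Among 14 spliceosome helicases 11 were listed and 10 lower, with AQR at -0.60 (q = 1.30e-17), DHX15 at -0.38 and DDX17 at -0.39 in the authors' deposited table. Of 36 partners in the Prp19 complex and elsewhere in the spliceosome 16 were listed, 9 lower and 7 higher, a share of 56.3% lower beside the 49.3% of all listed genes. CHERP stood at -0.35, whereas EFTUD2, the GTPase of U5, was higher at 0.23 in the authors' deposited table. EFTUD2 thus went against its U5 partners PRPF8 and SNRNP200. For snRNP assembly by the SMN complex 6 of 16 genes were listed, 4 lower and 2 higher, with STRAP at 0.31, GEMIN4 at -0.29 and SMN2, whose reads may be shared with its near-identical copy SMN1, at 0.33 in the authors' deposited table. Of 8 partners of the minor spliceosome 4 were listed, 2 each way, with PDCD7 at -0.76, ZMAT5 at 0.63 and RNPC3 at -0.40 in the authors' deposited table. AQR and PDCD7 lie on chromosome 15, where 80.2% of the 257 listed genes were lower, and the part of this in their values was not tested.

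Regulators outside the naming rule leaned the same way as those within it. Among 56 other splicing regulators 34 were listed and 29 (85.3%) lower. Beside ESRP1, RBPMS, an RNA-binding protein of smooth muscle splicing, stood at -1.18 in the authors' deposited table. For kinases and phosphatases of SR proteins 6 of 8 were listed and 5 lower. DYRK3, which dissolves nuclear and cytoplasmic condensates, was the higher one at 0.55, with DYRK2 at -0.49 and DYRK1B at -1.06 in the authors' deposited table. In the exon junction complex list 4 of 9 were listed and 3 lower, PNN at -0.56, ACIN1 at -0.46 and CASC3 at -0.24 in the authors' deposited table. The other, EIF4A3, was higher at 0.09 (q = 0.0481) in the authors' deposited table.

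In the nonsense-mediated decay list and the cleavage and polyadenylation list every listed gene was lower. Of 13 nonsense-mediated decay factors 12 were listed, all lower, with a median of -0.29. Among them PNRC2 stood at -0.45 (q = 3.26e-15), DHX34 at -0.53 (q = 3.75e-14) and the central helicase UPF1 at -0.32 in the authors' deposited table. Of 20 cleavage and polyadenylation factors 16 were listed, all lower, with a median of -0.31. CPSF7 and NUDT21, subunits of the CFIm complex that sets the choice of polyadenylation site, were at -0.48 and -0.38 and CPSF1 at -0.37 in the authors' deposited table. The median coding lengths of the listed genes were 3218 and 1950 nt, beside 1458 nt for all listed genes. PNRC2 at 417 nt, NUDT21 at 681 nt, CPSF4 at 807 nt and PABPN1 at 918 nt were short and also lower. The part of length in these directions was not tested.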

How the data were processed

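RNA sequencing compared 3 wild-type and 3 Rab27B KO cultures of HCT116, grouped by sample title and genotype label. Total RNA was purified with RNeasy columns and made into DNBSEQ libraries, per the labels' protocols. The submitters' processing notes name HISAT, Bowtie2 and GRCh38. How reads were counted, scaled and tested by the authors is not stated in the labels or headers. The values in the deposited tables are log2 fold changes and q-values, plus a linear ratio (fold) for higher genes, per the file headers. No columns of sample values were used, and depth per sample is unknown. The submitters call the samples biological replicates.

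As planned for tables without counts, the threshold was the authors' q-value below 0.05, and no test was added. Members, roles and gene lists were chosen with earlier results of these data known. Members were found by symbol, and all 86 matched RefSeq (GRCh38.p14) by gene ID, PRPF4B under the name PRP4K. Of all listed genes 7656 matched. Coding and transcript lengths, GC content and transcript types came from GENCODE release 29 for 7610 genes, through Entrez IDs. By the naming rule, members are named within their role, and in a role with over 6 listed members values go to the 4 largest rises, the 4 largest falls, the 2 smallest q-values and their paralogs. The other SR, hnRNP, RBM and muscleblind-group members given with values lie beyond the rule and were added after their values were seen. Of other genes, up to 3 per list with the smallest q-value are named, with RAB27B and the fixed markers. ESRP2, RBFOX2 and EIF4A3 lie beyond this and were added after their values were seen. Some genes that the rule would name are counted but not reported by name here. Motif letters were searched in RefSeq promoter windows. Shares carry 95% Wilson intervals, and the code for them was tested on simulated data. The alternatives tried were 0.01 as the q-value limit, 0.5 as the smallest log2 change, leaving out chromosomes 4, 7, 13 and 15, leaving out near-identical copies, and, chosen after seeing the data, a coding length of at least 1000 nt. Python 3.11.15, pandas 2.3.3, numpy 2.4.6, scipy 1.17.1 and matplotlib 3.10.9 were used.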

Additional observations from a re-analysis of the deposited data

How the results depend on the processing

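The share of higher genes was 50% among core snRNP proteins and 14.8% among regulators. At a q-value below 0.01 it was 47.1% (8 higher, 9 lower) and 12.5% (6 higher, 42 lower). Without chromosomes 4, 7, 13 and 15 it was 56.3% (9 higher, 7 lower) and 14.9% (7 higher, 40 lower). These settings keep most of the same genes, and for the core class the share could not have left its 95% Wilson interval. They are therefore no independent check. Leaving out near-identical copies removed no member. With a log2 change of at least 0.5 only 1 core gene was higher and 1 lower, and 2 regulators were higher and 4 lower, a share of 33.3% higher. At that size the other RNA-processing lists had 11.1% higher, against 17.4% over all their listed genes; these alternatives for the lists were chosen after seeing the data. With a coding length of at least 1000 nt, also chosen after seeing the data, 0 core genes (0%) were higher and 7 lower, while 6 of 46 regulators were higher. No paired analysis was possible because the tables hold no values per sample, and leaving out each replicate could not be run for the same reason. Without depth or spread per gene, small folds cannot be ranked by reliability except through the authors' q-values, and genes in neither table cannot be called unchanged.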
